A study of Mus musculus with 4 samples.

Results

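The 10 genes described here encode plasma membrane amino acid transporters that growing T cells use: Slc7a11, Slc7a5, Slc7a6, Slc3a2, Slc43a1, Slc7a1, Slc1a5, Slc1a4, Slc38a1 and Slc38a2. They were chosen by name, as genes with an array probe set that the platform annotation ties to that gene alone, and all 10 were found, with 20 probe sets, among 18193 genes with such a probe set. A probe set is a group of short probes that read 1 transcript. Each gene is represented by its brightest probe set over the 4 arrays unless another is named, and all 10 were among the 11581 genes bright enough to be tested. RNA came from T29, a thymic lymphoma cell line of the mouse that the submitters call Ikaros-deficient, so the results concern a single line. All 4 samples carried MigR1-MLER, a construct delivered by retrovirus that holds an inducible dominant-negative Mastermind. In the tested condition 2 samples received 100 nM 4OHT (4-hydroxytamoxifen, the inducer) for 24 h, and in the control condition 2 samples received ethanol, its solvent, for 24 h. Construct-free samples were not analysed here, so an action of 4OHT itself and the action of the construct cannot be told apart. Whether the replicates were grown apart is not in the labels, and the p-values therefore cover no more than the scatter of these arrays, which may be technical.

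Mastermind is the coactivator that lets Notch turn on its target genes, and the dominant-negative form blocks this step. T cells that enter growth import large amounts of glutamine, leucine, arginine and cystine, and the transporters that carry them are known to be controlled by the growth factor MYC and, when amino acids are short, by the stress factor ATF4. Several of the carriers work as pairs: the light chains encoded by Slc7a5, Slc7a6 and Slc7a11 reach the cell surface bound to the glycoprotein heavy chain CD98hc, the product of Slc3a2. Slc7a1, Slc1a5, Slc1a4, Slc38a1, Slc38a2 and Slc43a1 encode carriers that do not need that heavy chain.

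The 10 genes did not move as a block. With 4OHT, Slc7a11, the cystine carrier, rose, and Slc7a1, the arginine and lysine carrier, fell. The other 8 did not pass the test. By limma with Benjamini-Hochberg adjustment over all genes tested and a threshold of 0.05, 1 member was therefore higher, where 3.9% of all tested genes were, and 1 was lower, where 3.57% were (7.47% in either direction). The median log2 change of the 10 members (4OHT minus ethanol, as throughout) was -0.21, against -0.012 over all genes tested. For 2 members both 4OHT arrays lay above both ethanol arrays, and for 4 members below them, while 26.7% of all tested genes had the groups apart in the first direction and 30.2% in the second. With 10 genes, these counts are not read as a result about the members as a set. The levels below are log2 values from RMA, which are relative to each probe set, so the levels are not ranked between genes. In RNA from whole cultures, fewer cells making a transcript and less transcript per cell cannot be told apart.

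**Figure D1:**
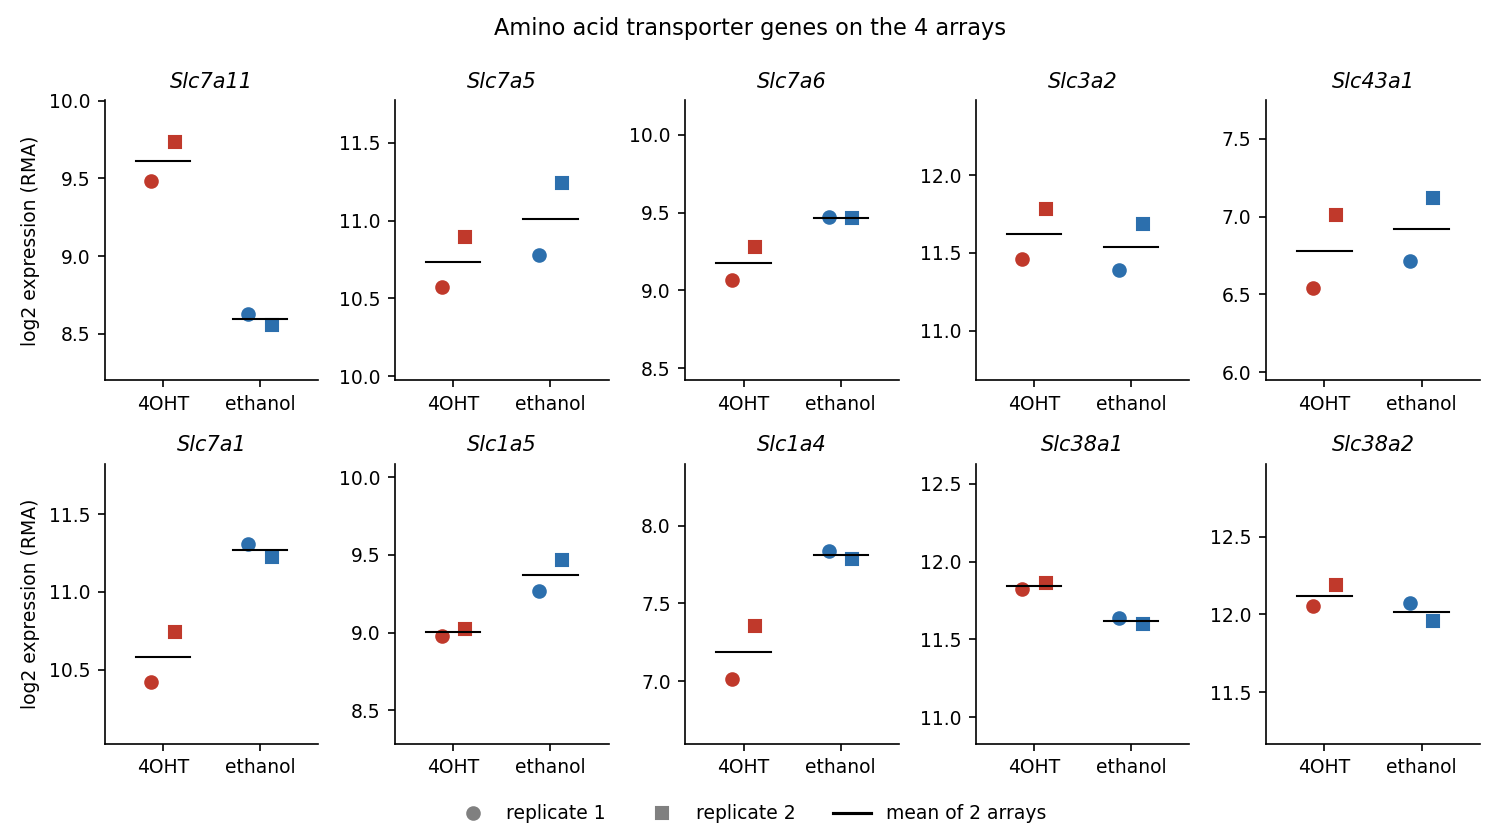
Log2 expression (RMA, vertical axis) of the 10 transporter genes on each array, with 4OHT left of ethanol; circles are replicate 1, squares replicate 2 and lines the mean of 2 arrays. Every panel spans the same height in log2 units. Slc7a11 stands clearly higher with 4OHT, Slc7a1 and Slc1a4 stand lower, and the groups overlap for Slc7a5, Slc3a2, Slc43a1 and Slc38a2.

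Slc7a11 encodes xCT, the light chain that exchanges extracellular cystine for intracellular glutamate and so supplies cysteine for glutathione. Its level was 9.48 and 9.73 on the 4OHT arrays, against 8.63 and 8.56 on the ethanol arrays. The groups were far apart compared with the gap between arrays of 1 group, which was 0.25 with 4OHT and 0.068 with ethanol. The means were 9.61 ± 0.18 with 4OHT and 8.59 ± 0.048 with ethanol (SD, n = 2 each), a 2.02-fold rise (log2 change 1.02 ± 0.11 SE, limma adjusted p = 0.0151). A second probe set of the gene gave 9.33 and 9.57 with 4OHT and 8.17 and 8.07 with ethanol. It moved the same way and further, by 1.33 ± 0.12 in a fit over all 34945 probe sets that name 1 gene (limma adjusted p = 0.00928). Of all tested genes, 85 had a larger rise than Slc7a11. The call rests on all 4 arrays: with any 1 of them left out, the log2 change was between 0.89 and 1.14 and the adjusted p between 0.055 and 0.0654, in fits with 1 residual degree of freedom.

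The promoter of Slc7a11 is shown because its rise can be set against a set of short motifs fixed for the whole group. RefSeq promoter windows of assembly GRCm38.p6 run from 250 bases before to 50 bases after a transcription start. They were given for 7 of the 10 members, in 9 windows: Slc7a11, Slc7a6, Slc3a2, Slc43a1, Slc7a1, Slc1a4 and Slc38a2. The motifs, searched on both strands, were TGATGNAAN (the amino acid response element, bound by ATF4), TGACNNNGC (the antioxidant response element, bound by NRF2), CACGTG (the E-box, bound by MYC with MAX) and TGGGAA (the core bound by RBPJ, the DNA-binding partner of Notch). No matches of different motifs overlapped in these windows. In the windows below, each 5′ to 3′ on the gene's own strand, capitals mark every match. Slc7a11 lies at chr3:50443564-50443863 (minus strand), Slc1a4 at chr11:20332664-20332963 (minus strand), and the more upstream of the windows of Slc7a1 at chr5:148399855-148400154 (minus strand). Slc1a4 is shown because it also holds the amino acid response element, and Slc7a1 because it is the member that fell.
Slc7a11: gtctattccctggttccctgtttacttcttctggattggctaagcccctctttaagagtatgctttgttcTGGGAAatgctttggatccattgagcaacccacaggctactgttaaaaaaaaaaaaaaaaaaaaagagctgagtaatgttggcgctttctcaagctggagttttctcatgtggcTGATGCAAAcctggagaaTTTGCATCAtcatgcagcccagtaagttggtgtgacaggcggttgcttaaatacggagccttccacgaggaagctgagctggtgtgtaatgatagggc
Slc1a4: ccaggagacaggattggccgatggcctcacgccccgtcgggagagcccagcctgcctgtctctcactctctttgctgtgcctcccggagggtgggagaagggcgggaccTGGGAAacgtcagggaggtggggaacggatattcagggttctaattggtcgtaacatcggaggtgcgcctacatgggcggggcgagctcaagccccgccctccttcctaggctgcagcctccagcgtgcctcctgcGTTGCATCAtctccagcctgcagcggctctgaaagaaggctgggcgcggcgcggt
Slc7a1: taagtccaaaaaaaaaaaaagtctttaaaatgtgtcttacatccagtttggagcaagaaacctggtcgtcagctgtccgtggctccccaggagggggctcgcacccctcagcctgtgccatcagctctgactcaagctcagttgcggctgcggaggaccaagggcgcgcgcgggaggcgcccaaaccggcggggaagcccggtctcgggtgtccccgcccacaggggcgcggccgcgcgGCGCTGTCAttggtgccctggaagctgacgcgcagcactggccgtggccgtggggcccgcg

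The Slc7a11 window held a pair of amino acid response elements in opposite orientation. TGATGCAAA lay 66 to 58 bases before the start, and TTTGCATCA, the same letters on the other strand, 48 to 40 bases before it. The motif occurred in 3.95% of all 32851 windows, and 0.07% of them held it at least 2 times. The Slc7a11 window also held the RBPJ core, at 180 to 175 bases before the start, as did 25.6% of all windows. It held neither the E-box nor the antioxidant response element.

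The Slc1a4 window held 1 amino acid response element, across the start site (GTTGCATCA, the other strand), and 1 RBPJ core. The shown Slc7a1 window held 1 antioxidant response element, 11 to 3 bases before the start, a motif found in 12.4% of all windows, and the other Slc7a1 window held none of the 4 motifs. Among all 7 members with a window, 2 held the amino acid response element (Slc7a11 and Slc1a4), 4 the antioxidant response element (Slc7a6, Slc43a1, Slc7a1 and Slc38a2), 4 the RBPJ core (Slc7a11, Slc3a2, Slc43a1 and Slc1a4) and 1 the E-box (Slc43a1), which 7.15% of all windows held. The 2 members with the amino acid response element differed in direction: Slc7a11 was called higher, and Slc1a4 had a change below 0 that did not pass. A match is a run of letters and not a shown binding site.

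**Figure D2:**
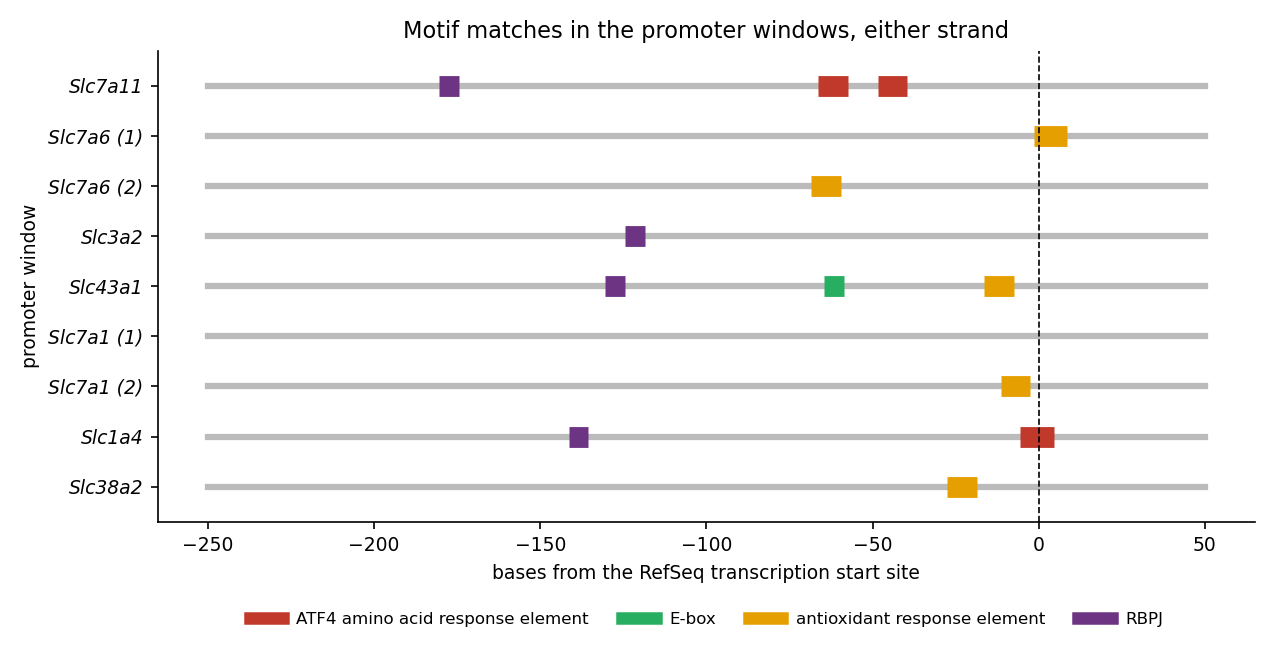
Motif matches on either strand (coloured blocks) in the 9 RefSeq promoter windows of 7 transporter genes, by distance in bases from the start site (dashed line); a number in brackets tells windows of 1 gene apart. The amino acid response element appears 2 times in the Slc7a11 window and 1 time in the Slc1a4 window.

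Slc3a2, the gene of the CD98 heavy chain that xCT binds, did not follow Slc7a11. It was at 11.46 and 11.78 with 4OHT, against 11.39 and 11.69 with ethanol, so the groups overlapped. Its log2 change was 0.085 ± 0.16 (limma adjusted p = 0.775), with a 95% interval from -0.31 to 0.47. A change of the size seen for Slc7a11 lies outside this interval, while a rise of up to 0.47 or a fall of up to 0.31 lies inside it. In both conditions the array labelled replicate 2 read higher than replicate 1, by 0.32 with 4OHT and 0.30 with ethanol, a gap larger than the difference between conditions.

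Neither of the other light chain genes among the 10 passed the test. Slc7a5 encodes LAT1, which brings in leucine and other large neutral amino acids in exchange for glutamine. It was at 10.58 and 10.90 with 4OHT, against 10.78 and 11.24 with ethanol, and the groups overlapped (log2 change -0.27 ± 0.19, limma adjusted p = 0.42, 95% interval -0.74 to 0.20). Slc7a6, which encodes y+LAT2, an exchanger of cationic for neutral amino acids, was at 9.07 and 9.28 with 4OHT, against 9.47 and 9.46 with ethanol. Both 4OHT arrays were below both ethanol arrays, but the log2 change of -0.29 ± 0.10 did not pass (limma adjusted p = 0.156). A second Slc7a6 probe set gave the same order, with 9.06 and 9.14 with 4OHT and 9.52 and 9.43 with ethanol (log2 change -0.38 in the fit over all probe sets, limma adjusted p = 0.136).

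Within each array the cystine light chain was set against the heavy chain and against LAT1, as differences of log2 values, to ask whether the transcripts of these partners changed unequally. Slc7a11 minus Slc3a2 was -1.98 and -2.05 with 4OHT, against -2.76 and -3.13 with ethanol, a shift of 0.93. Slc7a11 minus Slc7a5 was -1.09 and -1.16 with 4OHT, against -2.15 and -2.68 with ethanol, a shift of 1.29. The groups did not overlap for either pair. Slc7a5 minus Slc3a2 was -0.88 and -0.89 with 4OHT, against -0.61 and -0.45 with ethanol, and Slc7a6 minus Slc3a2 was -2.39 and -2.51 with 4OHT, against -1.92 and -2.22 with ethanol. These shifts were -0.36 and -0.38, again with no overlap. Of all tested genes taken singly, 26.7% had both 4OHT arrays above both ethanol arrays and 30.2% below. The share over other pairs of genes was not counted. The 4 differences also share genes, so their lack of overlap is not read as a result. The 4 comparisons each gave a two-sided exact permutation p of 0.333 (also 0.333 after Benjamini-Hochberg adjustment over the 4), which is the smallest that 2 arrays against 2 allow, so this test cannot reach the threshold. The absolute size of such a difference depends on the probes and has no meaning of its own.

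Slc43a1 encodes LAT3, a facilitative carrier of large neutral amino acids. It was at 6.54 and 7.01 with 4OHT, against 6.72 and 7.12 with ethanol (log2 change -0.14 ± 0.20, limma adjusted p = 0.704, 95% interval -0.65 to 0.37). Its arrays of 1 condition differed by 0.47 with 4OHT and 0.40 with ethanol, the widest replicate gap among the 10 genes with 4OHT, and the groups overlapped.

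Slc7a1 encodes CAT1, the main uptake route for arginine and lysine and also the cell surface receptor of ecotropic mouse leukaemia viruses. Its level was 10.42 and 10.74 on the 4OHT arrays, against 11.31 and 11.22 on the ethanol arrays, with no overlap. The means were 10.58 ± 0.23 with 4OHT and 11.27 ± 0.060 with ethanol (SD, n = 2 each), so it was 1.61-fold lower with 4OHT (log2 change -0.68 ± 0.13 SE, limma adjusted p = 0.0397). Another bright probe set moved alike, with 9.52 and 9.74 with 4OHT against 10.04 and 10.46 with ethanol, a log2 change of -0.62. The remaining probe set was at 4.58 and 4.27 with 4OHT and 4.65 and 4.41 with ethanol, under the testing floor of 4.81, and is not read further. Neither bright probe set passed in the fit over all probe sets (limma adjusted p = 0.0602 and 0.125), which adjusts over more tests. The call was lost whichever array was left out, with log2 changes between -0.85 and -0.52 and adjusted p-values between 0.0677 and 0.146.

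Slc1a5 and Slc1a4 encode ASCT2 and ASCT1, sodium-dependent exchangers of small neutral amino acids, and ASCT2 is a main entry route for glutamine. Slc1a5 was at 8.98 and 9.03 with 4OHT, against 9.27 and 9.47 with ethanol, with no overlap. Its log2 change of -0.37 ± 0.10 did not pass (limma adjusted p = 0.0965). Of the other settings tried, only the replicate number as a block gave a call for Slc1a5 (limma adjusted p = 0.0325). A dimmer probe set moved by a like amount, at 5.20 and 5.15 with 4OHT against 5.58 and 5.55 with ethanol (log2 change -0.39). Slc1a4, which carries alanine, serine, cysteine and threonine, was at 7.01 and 7.36 with 4OHT, against 7.83 and 7.79 with ethanol. The groups were apart on this probe set and on both of its other probe sets, whose log2 changes were -0.66 and -0.65. Slc1a4 missed the threshold narrowly, with a log2 change of -0.62 ± 0.13 (limma adjusted p = 0.0522). It passed when only genes above the 60th percentile of brightness were tested (limma adjusted p = 0.0376), after quantile normalization (0.0451) and after median centring (0.0499). Slc1a4 also passed with an intensity trend without or with a robust prior (0.039 and 0.0372) and with the replicate number as a block (0.00623). It did not pass in any fit that left out an array, with log2 changes between -0.80 and -0.45.

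Slc38a1 and Slc38a2 encode SNAT1 and SNAT2, sodium-coupled importers of glutamine and other small neutral amino acids, and the genes are direct neighbours among protein-coding genes on chromosome 15. Slc38a1 was at 11.82 and 11.86 with 4OHT, against 11.64 and 11.60 with ethanol. All arrays of a condition lay close together, and the groups did not overlap, but the log2 change was small at 0.23 ± 0.084 and did not pass (limma adjusted p = 0.171). This probe set is of the _s_at type, which can read more than 1 transcript. The other Slc38a1 probe set was at 10.49 and 10.61 with 4OHT, against 10.32 and 10.47 with ethanol, with a log2 change of 0.15. Slc38a2, a gene known to be induced by amino acid shortage, was at 12.05 and 12.19 with 4OHT, against 12.08 and 11.96 with ethanol (log2 change 0.10 ± 0.099, limma adjusted p = 0.554). Its groups overlapped, and its other probe sets had log2 changes of 0.14 and -0.076. The 95% intervals of the lead probe sets, 0.016 to 0.44 for Slc38a1 and -0.14 to 0.35 for Slc38a2, leave out a fall as large as that of Slc7a1.

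**Figure D3:**
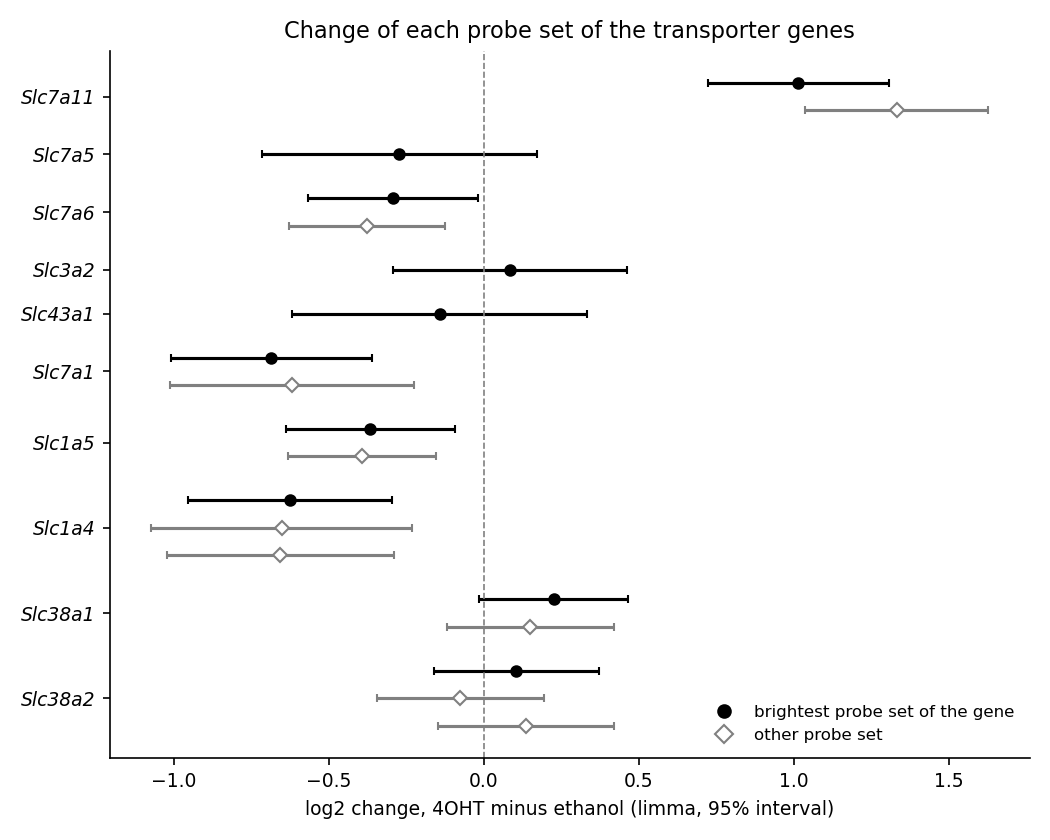
Log2 change (4OHT minus ethanol, horizontal axis) of the 19 transporter probe sets above the testing floor, with 95% intervals from limma over all probe sets that name 1 gene. Filled circles are the brightest probe set of a gene and open diamonds its others. The probe sets of Slc7a11, Slc7a1, Slc7a6, Slc1a5, Slc1a4 and Slc38a1 fell on the same side of 0 within each gene, while those of Slc38a2 straddled it.

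Of the 7 genes with over 1 probe set, Slc38a2 alone had probe sets above the floor on both sides of 0. In the fit over all 34945 probe sets, both Slc7a11 probe sets were called higher, where 1.52% of all probe sets were, and none of the other 18 was called by limma, where 0.953% of all probe sets were called lower.

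Other amino acid transporters moved in both directions. A list of 31 further carriers had 30 with a probe set naming 1 gene and 19 bright enough to test. Of these 19, 4 rose, 1 fell and 14 did not pass in limma. Of all tested genes, 3.9% were called higher and 3.57% lower. With 19 genes, these counts are not read as a result about the list, whose median log2 change was 0.031. Slc6a20a, which encodes a proline carrier, was at 8.52 and 8.32 with 4OHT, against 4.67 and 4.55 with ethanol, both ethanol values under the testing floor, so it entered the test through the 4OHT arrays. Measured from that floor of 4.81 its rise was at least 12.2-fold, and its limma call is not read as support. Slc7a7 encodes y+LAT1, a further light chain of the CD98 heavy chain. It rose to 5.77 and 6.07 with 4OHT, against 4.74 and 4.97 with ethanol (log2 change 1.07 ± 0.14, limma adjusted p = 0.0202). Its ethanol replicate 1 value was under the testing floor of 4.81. With its probe sets averaged, Slc7a7 was at 0.68 (limma adjusted p = 0.0295), and without 1 array at 0.92 to 1.22. Slc43a2 encodes LAT4, the closest relative of LAT3, and rose to 8.15 and 8.10 with 4OHT, against 7.04 and 7.20 with ethanol (1.01 ± 0.096, limma adjusted p = 0.0116). With its probe sets averaged, Slc43a2 was at 0.73 (limma adjusted p = 0.0191), and without 1 array at 0.93 to 1.09. The falling gene was Slc16a10, a carrier of aromatic amino acids, at 7.29 and 7.76 with 4OHT, against 8.53 and 8.54 with ethanol (-1.01 ± 0.16, adjusted p = 0.0305). The other riser, Slc38a6 (0.49, adjusted p = 0.0349), was picked out with its value in view. Slc6a20a, which entered the test through its 4OHT arrays alone, is among the rising genes counted next. The number of rising genes was 1 without either 4OHT array, 2 without the ethanol array of replicate 1 and 3 without that of replicate 2. Slc16a10 lost its call in the fits lacking ethanol replicate 1, ethanol replicate 2 or 4OHT replicate 1, and when its probe sets were averaged (adjusted p = 0.0799).

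No gene of the amino acid shortage response passed the test. The list held 22 genes around the sensor kinase GCN2 and the factor ATF4, with members of the 10 left out, and 19 were tested with limma. At an unadjusted p under 0.05, 12 of the 19 were lower and none higher, while 13.2% of all tested genes were lower and 12.3% higher at that threshold. Their median log2 change was -0.42, against -0.012 over all genes tested. All but Ddit3 had a change below 0, and for 15 of the 19 both 4OHT arrays lay below both ethanol arrays, as for 30.2% of all tested genes. The list as a whole was not tested. Cth, which makes cysteine from cystathionine, was at 6.03 and 7.28 with 4OHT, against 7.79 and 8.13 with ethanol (-1.31 ± 0.40, limma adjusted p = 0.115). Ddit4, an inhibitor of mTORC1 signalling, was at 9.44 and 9.59 with 4OHT, against 11.31 and 9.94 with ethanol, where replicate 1 stood apart (adjusted p = 0.18).

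Chac1, a glutathione-degrading enzyme gene, was at 7.16 and 7.88 with 4OHT, against 8.33 and 8.42 with ethanol (-0.85 ± 0.23, limma adjusted p = 0.0922). Gpt2, mitochondrial alanine aminotransferase, had a log2 change of -0.77 (adjusted p = 0.105). In these genes the 4OHT array labelled replicate 1 was the lowest of the 4. In the amino acid response list the count of lower genes called was 3 with an intensity trend. It was 12 of the 19 tested with the replicate number as a block, a fit with 1 residual degree of freedom. Atf4 itself was at 11.73 and 12.14 with 4OHT, against 12.15 and 12.41 with ethanol (-0.34 ± 0.17, adjusted p = 0.269).

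The amino acid response element could also be set beside these genes. It was in a promoter window of 4 of the 17 listed response genes that had one: Asns, Chac1, Trib3 and Nupr1, named here for the motif. Their log2 changes were -0.63, -0.85, -0.72 and -0.56, and none passed (limma adjusted p = 0.171, 0.0922, 0.179 and 0.217). Among all tested genes with a window, 2.55% held the motif. Of the tested genes, 7 held at least 2 matches in a window. Slc7a11 and Slc7a7 were higher, where 3.9% of all tested genes were. Slc7a7 has several windows. Its 2 matches lay in the most upstream one alone, beginning 141 and 1 bases before that start, and its other windows held 1 match or none. Aars, Chchd10, Sgsm3, Tspyl3 and Zfp672 were not called. These 7 were picked out after their changes were known.

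**Figure D4:**
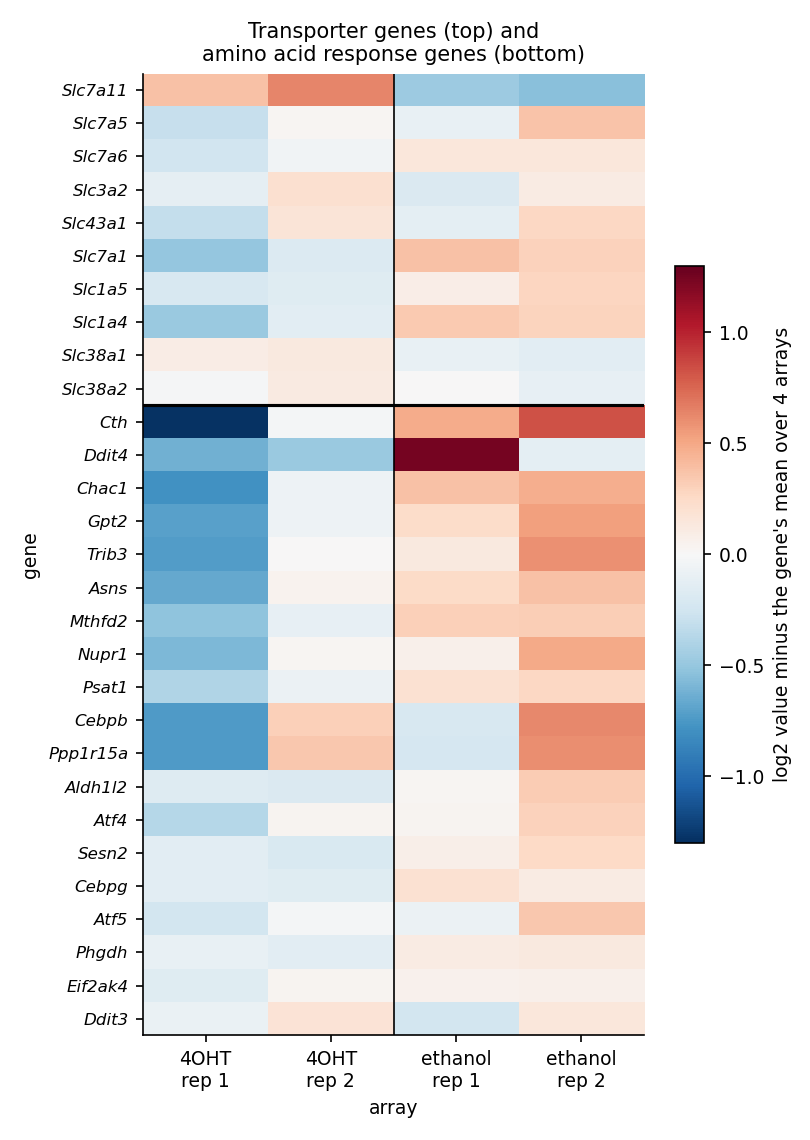
Log2 value of each gene on each array minus that gene's mean over the 4 arrays (colour; red high, blue low), for the 10 transporter genes above the line and the 19 tested amino acid response genes below it. Columns are 4OHT replicates 1 and 2, then ethanol replicates 1 and 2. Slc7a11 is red with 4OHT and blue with ethanol, and most response genes are blue on 4OHT replicate 1.

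No gene for the handling of cystine and glutathione passed the test. Of 22 listed genes, 19 were tested, with limma. At an unadjusted p under 0.05, 5 were lower and none higher, where 13.2% and 12.3% of all tested genes were. The median log2 change was -0.11. The members named by rule were Cth and Chac1, given above, Gsr, glutathione reductase (-0.42, limma adjusted p = 0.173), and Cbs, cystathionine synthase (-0.39, adjusted p = 0.0659). Nfe2l2, which encodes NRF2, an activator of part of this list, was at 10.33 and 10.20 with 4OHT, against 10.18 and 10.07 with ethanol (0.14 ± 0.096, adjusted p = 0.418). Bach1, which encodes a repressor that competes with NRF2 for its sites, rose to 11.53 and 11.57 with 4OHT, against 11.11 and 11.08 with ethanol (0.46 ± 0.084, adjusted p = 0.0366). Whichever array was left out, the Bach1 change stayed between 0.44 and 0.47 but was not called. Nor was it called with no filter (adjusted p = 0.0511) or with its probe sets averaged, where it was 0.30 (adjusted p = 0.16).

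Some enzymes that use glutamine and glutamate fell. Of 23 listed genes, 19 were tested. In limma 4 fell, where 3.57% of all tested genes did, none rose, where 3.9% did, and 15 did not pass. At an unadjusted p under 0.05, 13 were lower and 1 higher, where 13.2% and 12.3% of all tested genes were. The median log2 change was -0.41, and for 14 of the 19 the 4OHT arrays lay below the ethanol arrays, as for 30.2% of all tested genes. Asns, Psat1 and Gpt2 are also in the amino acid response list, so the lists are not separate observations. Bcat1, the cytosolic branched-chain aminotransferase, was at 8.20 and 8.79 with 4OHT, against 9.65 and 9.88 with ethanol (-1.27 ± 0.21, limma adjusted p = 0.0305). Got1, cytosolic aspartate aminotransferase, fell by 0.64 (adjusted p = 0.0325). The purine synthesis genes Pfas and Ppat, whose enzymes take nitrogen from glutamine, fell by 0.60 and 0.53 (adjusted p = 0.0251 and 0.0359). With its probe sets averaged, Ppat was at -0.33 and was not called (limma adjusted p = 0.0772). When 1 array was left out, at most 1 gene of the list was called.

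Among genes by which mTORC1 senses amino acids, single members moved in each direction. Of 39 listed genes 36 were tested with limma. Of these, 1 was higher, where 3.9% of all tested genes were, 1 was lower, where 3.57% were, and 34 were not called. At an unadjusted p under 0.05, 5 were higher and 5 lower, where 12.3% and 13.2% of all tested genes were. These counts are not read as a result about the list. The log2 changes ran from -0.98 to 0.61, with a median of -0.016. Sesn3, a sestrin gene, rose by 0.55 (limma adjusted p = 0.0295) and Rragd, a Rag GTPase gene, fell by 0.72 (adjusted p = 0.0349); neither was called when any 1 array was left out, with log2 changes of 0.51 to 0.59 for Sesn3 and -0.88 to -0.56 for Rragd. With its probe sets averaged, Rragd was at -0.30 (adjusted p = 0.153). Eif4ebp1, the translation repressor that mTORC1 phosphorylates, was at 10.06 and 10.72 with 4OHT, against 11.36 and 11.38 with ethanol (-0.98 ± 0.22, adjusted p = 0.0563). Fnip1, a folliculin partner gene, was at 8.47 and 8.36 with 4OHT, against 7.96 and 7.66 with ethanol (0.61 ± 0.13, adjusted p = 0.0503). Both passed with an intensity trend (adjusted p = 0.0254 and 0.0346). With probe sets averaged, Eif4ebp1 was at -0.71 (limma adjusted p = 0.043) and Fnip1 at 0.30 (adjusted p = 0.134).

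**Figure D5:**
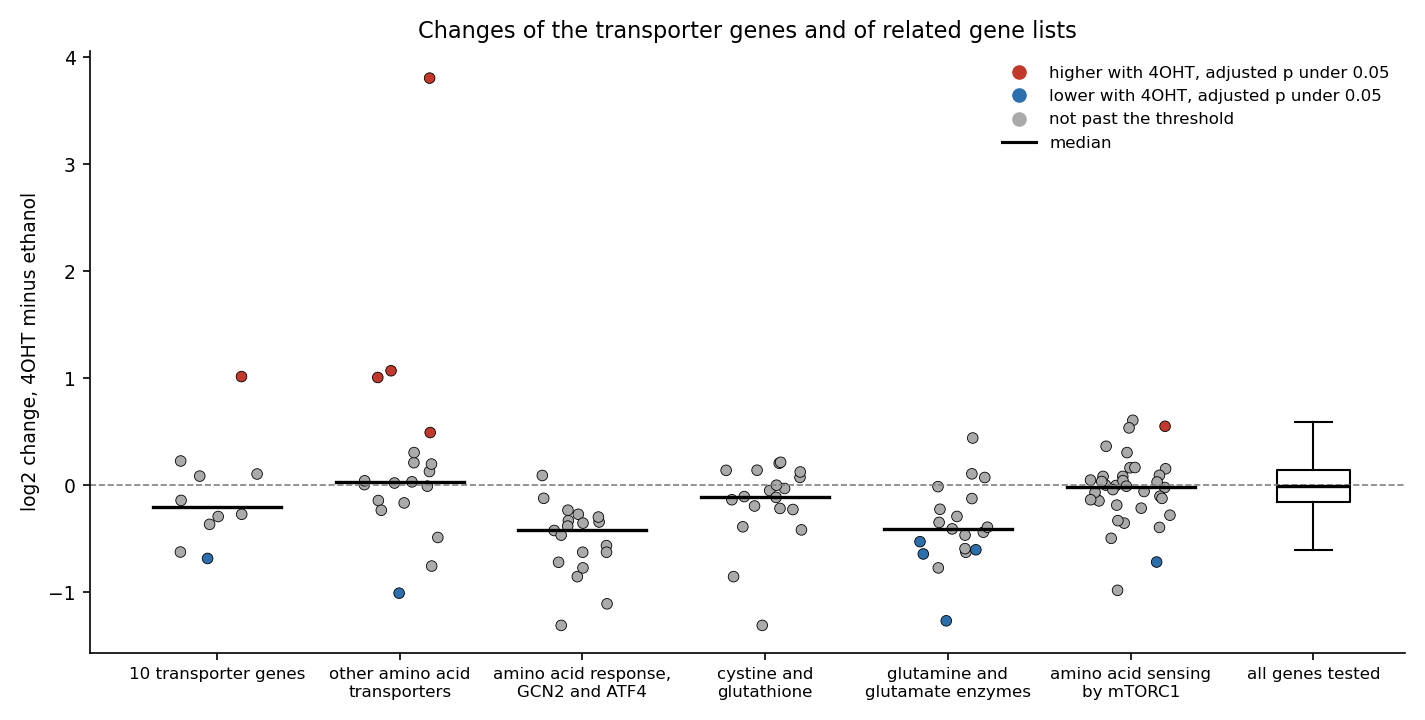
Log2 change (4OHT minus ethanol) of each tested gene (points) in the 10 transporter genes and 5 related lists, with the median of each as a line; colours mark calls by limma. The box shows the quartiles of all 11581 tested genes, with whiskers to 1.5 times the interquartile range and more distant genes not drawn. The medians of the amino acid response and the glutamine lists, at -0.42 and -0.41, are the lowest, and Slc6a20a is the point near 4. The amino acid response and glutamine lists share Asns, Psat1 and Gpt2.

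Regulators tied to these carriers gave the setting. Dtx1, a direct Notch target used as a check of the block, was at 6.01 on both 4OHT arrays, against 9.41 and 9.43 on the ethanol arrays. Myc was at 10.96 and 11.12 with 4OHT, against 11.63 and 11.94 with ethanol (-0.74 ± 0.13, limma adjusted p = 0.0358), and lost its call whichever array was left out, with changes of -0.90 to -0.59. Its relative Mycn was at 13.91 and 13.83 with 4OHT, against 13.59 and 13.69 with ethanol (0.23 ± 0.091, adjusted p = 0.187), and passed with an intensity trend (adjusted p = 0.0378). With its probe sets averaged, Mycn was at 0.069 (limma adjusted p = 0.659). Max, the partner of Myc and Mycn, was at 8.11 and 8.73 with 4OHT, against 9.30 and 8.99 with ethanol (adjusted p = 0.119). Hif1a, the hypoxia factor, had a log2 change of 0.21 (adjusted p = 0.233). Ikzf1, the Ikaros gene, was at 10.53 and 10.46 with 4OHT, against 10.05 and 10.01 with ethanol (log2 change 0.47, limma adjusted p = 0.0361). Its probe set was above the testing floor although the line is called Ikaros-deficient, and whether this transcript makes working Ikaros was not tested. Ikzf1 was not called whichever array was left out (0.44 to 0.50) or with its probe sets averaged (0.40, limma adjusted p = 0.101). Whether any of these changes bears on the transporters was not tested.

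Across all tested genes the arrays correlated at 0.995 within each condition and at 0.983 to 0.987 between conditions (Pearson's r across genes, which are not independent replicates). T-cell markers were bright, with Cd3d, Cd3e, Cd3g, Thy1, Zap70 and Cd247 among the tested genes, while Cd2 and Cd5 were under the testing floor. The summed level of the 8 T-cell markers, on the log2 scale, was 14.72 and 14.78 with 4OHT and 14.68 and 14.82 with ethanol. Within it, Cd247 was higher (log2 change 0.68, limma adjusted p = 0.0347) and Cd3g lower (-0.57, adjusted p = 0.0356), and the part of these shifts in the transporter values was not tested. That of the 6 B-cell markers was 7.05 and 7.04 with 4OHT and 7.12 and 7.14 with ethanol, and that of the 7 myeloid markers 7.78 and 7.79 with 4OHT and 7.80 and 7.83 with ethanol. Stromal, epithelial and endothelial markers summed to 7.70 and 7.64 with 4OHT and 7.74 and 7.70 with ethanol, and the 3 erythroid markers to 7.61 on each 4OHT array and 7.87 and 8.04 with ethanol. The erythroid sum was lower with 4OHT, mostly through Epor, and its part in the transporter values was not tested. RMA values have no true zero, so a dim marker cannot be called absent.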

How the data were processed

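RNA from 4 samples of the T29 line (2 with 4OHT, 2 with ethanol) was measured on Affymetrix arrays. The deposited log2 values, 1 per probe set and array, are the authors' RMA output (per the submitters' processing notes, which give no version). RMA corrects background, equalises the arrays' distributions and summarises probes, so a global shift in RNA content is removed and folds of dim probe sets are compressed. The log2 scale was read from the values (2.25 to 14.6). RMA keeps no detection call and no depth, and the number of arrays limits the precision.

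Of 45101 probe sets, 34945 named exactly 1 gene in the platform annotation, 932 several, and 9224 were unnamed here or were controls. A gene's brightest probe set over 4 arrays stood for it. Genes whose brightest probe set was under the 40th percentile of all 34945 probe sets naming 1 gene (4.81) were not tested. The test was limma's (version 3.58.1, R 4.3.3; lmFit, then eBayes with no trend or block), with Benjamini-Hochberg adjustment over 11581 genes and a threshold of 0.05. The script was tested on simulated data, in which 200 genes were changed in each of 20 runs. It recovered 7.6% of log2 changes of size 0.5, 84% of size 1 and 99.2% of size 2, and 5.3% of its calls were false. A small change that did not pass is therefore not shown to be absent. Promoters came from RefSeq (GRCm38.p6) and were searched in Python 3.11.15. The 10 members and all lists were chosen from textbook knowledge with earlier results of these data known. Beside the members, up to 4 genes per list were named, called ones first and then by size of change, with the listed regulators. Trp53 has no probe set naming it alone and is not reported.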

Additional observations from a re-analysis of the deposited data

How the results depend on the processing

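Numbers of genes called higher and lower with 4OHT, 452 and 413, were 1104 and 1031 with the replicate number as a block, 663 and 636 with an intensity trend, and 679 and 666 with an intensity trend and robust prior; leaving out 1 array gave 9 to 125 higher and 12 to 66 lower. Of the 10 transporter genes, 1 was higher in all settings but those without 1 array (0 in each). The number of lower ones was 2 with the 60th percentile filter, after quantile normalization or median centring, or an intensity trend without or with a robust prior, 3 with the replicate block, and 0 whichever array was left out. Among the other transporters, 2 were higher with the 60th percentile filter and 1 to 3 without 1 array; 3 were lower with the replicate block, 0 with probe sets averaged per gene and 0 to 1 without 1 array. In the amino acid response list 12 were lower with the replicate block, 3 with an intensity trend without or with a robust prior and 0 to 2 without 1 array, and in the cystine and glutathione list 4 with the block and 0 to 2 without 1 array. In the mTORC1 list 3 were higher with the 60th percentile filter, 4 with the block, 2 with the mean of probe sets, 3 with either trend and 0 whichever array was left out; 2, 5 and 3 were lower with that filter, the block and either trend, and 0 to 1 without 1 array. In the glutamine list 12 were lower and 1 higher with the block, 8 lower with either trend, and 0 to 1 lower without 1 array.

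Without 1 array, log2 changes ran from -0.077 (4OHT replicate 2) to 0.25 (4OHT replicate 1) for Slc3a2 and from -0.38 (4OHT replicate 2) to 0.093 (4OHT replicate 1) for Slc43a1, and Slc3a2 was -0.064 without ethanol replicate 1 and Slc43a1 0.060 without ethanol replicate 2; no such value was called. The like ranges were -0.088 to 0.24 for Nfic, -0.070 to 0.23 for Rab5a and -0.046 to 0.25 for Pimreg, also uncalled, and Wwox turned to 0.11 with probe sets averaged. With the replicate block 12 named genes also passed in limma. They were Slc1a5, Slc1a4 and Atf4 (adjusted p = 0.0325, 0.00623 and 0.0406), and Cth, Chac1, Gpt2, Ddit4, Gsr, Cbs, Max, Eif4ebp1 and Fnip1 (0.00138 to 0.0266). The replicate numbers were not taken as pairs, because the labels do not say whether same-numbered arrays share a source and there are only 2 pairs. Same-numbered arrays deviated together (r = 0.34 across genes), so a pairing is unknown and not shown to be absent. Fits without 1 array, and the block, keep 1 residual degree of freedom. The cause of these differences was not tested.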

Other observations

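The tested genes whose 4 values, each centred on its own mean, lay nearest to those of Slc7a11 were Zbtb20, Pdlim5 and Arhgap26, at Euclidean distances of 0.074, 0.091 and 0.11 log2 units over 4 arrays. Zbtb20, a zinc finger repressor gene, was at 7.34 and 7.62 with 4OHT, against 6.43 and 6.35 with ethanol. Nearest to Slc7a5 were Dact1, Fhl1 and Wwox, at 0.040, 0.065 and 0.068, and nearest to Slc3a2 were Nfic, Rab5a and Pimreg, at 0.019, 0.021 and 0.026. Rab5a, an early endosome GTPase gene, was at 11.16 and 11.46 with 4OHT, against 11.09 and 11.37 with ethanol, so it shared with Slc3a2 the gap between arrays of different replicate number. With 4 arrays and 11581 genes, near matches are common, and likeness here is a description.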
